A study of Rattus norvegicus with 8 samples.

Results

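rno-miR-221 and rno-miR-222 are a pair of miRNAs made from neighbouring hairpins of the X chromosome. They are described here in the kidneys of rats given aristolochic acid (AA) and of control rats. Every row of the deposited count table whose name begins with rno-miR-221 or rno-miR-222 was taken, which gave 4 of the 620 listed miRNAs. These were miR-221 and miR-222 themselves and miR-221* and miR-222*, the other arms of the same hairpins. A further row, rno-mir-221*, is written with the name of the hairpin in lower case and was outside this rule. It had 1 to 12 counts per rat, and what sets it apart from miR-221* is not given in the sources used here.

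All 8 rats were male Fisher 344 rats of the Big Blue transgenic line, which carries a recoverable reporter gene for scoring mutations, so that the transgene is shared by both groups. The 4 AA rats were gavaged with AA as its sodium salt, a kidney toxin and carcinogen of Aristolochia plants, at a dose of 10.0 mg/kg (in a volume of 4 ml/kg) on 5 days a week from an age of 6 weeks. The 4 control rats were given 0.9% sodium chloride on that schedule. The methods give 12 weeks of treatment, whereas in the sample labels rats 1, 2, 3 and 4 of each group have 12, 13, 14 and 15 weeks, beside an age of 18 weeks for all. Each rat's kidney gave 1 small-RNA library, with 13736874 to 15525397 counts on miRNAs per control rat and 13412373 to 15616670 per AA rat.

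A miRNA is cut from a hairpin-shaped precursor, whose 2 arms can each give a mature strand of about the same length. The strand that is loaded into the silencing complex finds its target mRNAs mainly through its seed, the bases 2 to 8 from its 5′ end. miR-221 and miR-222 are known for repressing Cdkn1b (p27) and Cdkn1c (p57), inhibitors of the cyclin-dependent kinases that drive cells out of G1, and for repressing the receptor Kit. They are best known from vascular cells and from tumors.

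The mature sequences are shown because the seed, in capitals, decides which members are alike. They were taken from RefSeq (GRCr8 build), in which all 4 members were found, the unstarred names as the 3p arms and the starred names as the 5p arms.
miR-221: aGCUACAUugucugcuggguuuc
miR-222: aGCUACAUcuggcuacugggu
miR-221*: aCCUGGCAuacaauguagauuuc
miR-222*: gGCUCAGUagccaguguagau
miR-221 and miR-222 had the same seed, and no other rat mature miRNA in the RefSeq table had it. The starred arms had a seed each that no other listed rat miRNA shared. The unstarred pair began with the same 8 bases and was identical at 18 of 24 aligned positions (75%), whereas the starred pair was identical at 13 of 24. No run of more than 9 bases was shared between a member and any of the 689 other mature miRNAs, and none of more than 8 between miR-221 and miR-222. miR-222 and miR-222* have 21 bases in RefSeq and miR-221 and miR-221* have 23, and the libraries were cut from a gel at 22 to 30 bases.

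The hairpins are shown to place both arms, which are in capitals. That of miR-222 lies at chrX:6022621-6022723 and that of miR-221 at chrX:6023182-6023290, both on the plus strand of GRCr8, with 458 bases between them.
Mir222: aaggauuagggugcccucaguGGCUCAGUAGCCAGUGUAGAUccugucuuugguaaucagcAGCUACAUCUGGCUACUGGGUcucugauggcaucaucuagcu
Mir221: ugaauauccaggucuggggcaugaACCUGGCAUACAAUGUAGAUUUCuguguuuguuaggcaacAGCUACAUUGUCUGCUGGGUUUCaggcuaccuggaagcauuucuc
In the RefSeq gene table of that assembly, both hairpins lie within the spans of the long non-coding RNAs LOC120099382 and LOC120099384 and overlap no protein-coding gene. Whether they lie in exons or introns of these is not given there. The nearest protein-coding genes are Chst7 on one side and LOC100359876 on the other. The hairpins as a whole were identical at 72 of 117 aligned positions (61.5%).

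Both unstarred miRNAs were higher in the kidneys of the AA rats. miR-221 rose 1.77-fold and miR-222 rose 1.69-fold, with every AA rat above every control rat in both. miR-221* was 1.14-fold higher and miR-222* was 2.70-fold higher, and neither of these differences passed the test. Normalized counts are counts divided by the library's size factor (median of ratios), which puts the libraries on one scale. A miRNA was counted as changed where its Benjamini-Hochberg adjusted p was under 0.05 in a quasi-likelihood test (edgeR, over all 620 miRNAs) and the ratio of the group means was over 1.5. By this rule 2 of the 4 members rose, against 36 of 620 miRNAs (5.81%) that rose among all those listed. Many of the 620 had few counts. When only the 370 miRNAs with a mean of at least 10 counts were tested, 34 rose, miR-221 and miR-222 among them. The groups did not overlap, with AA higher, for 2 of the 4 members and for 60 of 620 miRNAs (9.68%). The RNA came from a cut piece of kidney tissue, and the methods do not say from which region. In such tissue, more cells of a type that holds a miRNA and more of the miRNA per cell cannot be told apart.

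miR-221 had 959, 736, 931 and 621 normalized counts in control rats 1 to 4. In AA rats 1 to 4 it had 1249, 1331, 1518 and 1647. The lowest AA rat was thus above the highest control rat, and the gap between them was larger than the gap between any 2 neighbouring AA rats. The means were 812 ± 162 (SD, n = 4) and 1436 ± 179.9 (SD, n = 4). On the log2 scale the rise was 0.82 with a standard error of 0.21 (edgeR, adjusted p = 0.0253).

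miR-222 had 349, 276, 346 and 265 normalized counts in control rats 1 to 4. The AA rats 1 to 4 had 521, 494, 480 and 591. Again no AA rat fell among the control rats, and the highest value of the 8 was that of AA rat 4, as for miR-221. The means were 309 ± 44.8 (SD, n = 4) and 522 ± 49.4 (SD, n = 4). The rise was 0.75 on the log2 scale, with a standard error of 0.21 (edgeR, adjusted p = 0.0390). For each of these 2 miRNAs the exact permutation test over the 70 labelings of the rats gave p = 0.0286 (two-sided), the smallest that 4 rats against 4 allow.

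miR-221*, the 5p arm of the miR-221 hairpin, had 2253, 2601, 2680 and 2726 normalized counts in control rats 1 to 4. It had 3289, 2228, 2519 and 3669 in AA rats 1 to 4. Only AA rats 1 and 4 were above the control rats, and AA rat 2 was the lowest of the 8. The means of 2565 ± 214 and 2926 ± 668 (SD, n = 4 each) differed by less than the spread among the AA rats. The log2 difference of 0.19 was below its standard error of 0.21 (edgeR, adjusted p = 0.574).

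miR-222*, the 5p arm of the miR-222 hairpin, was close to the limit of detection. It had 6, 2, 5 and 3 counts in control rats 1 to 4, before normalization, and 8, 4, 14 and 24 in AA rats 1 to 4. AA rats 1, 3 and 4 were above all control rats, and AA rat 2 lay within their range. The means were 4.21 ± 1.71 and 11.4 ± 6.99 normalized counts (SD, n = 4 each), so that the spread among the AA rats was large beside their mean. The log2 difference of 1.39, with a standard error of 0.57, did not pass the test (edgeR, adjusted p = 0.158). The control counts lie near the 3 counts that a count of 0 still allows. What size of difference could be detected at this depth was not tested.

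**Figure D1:**
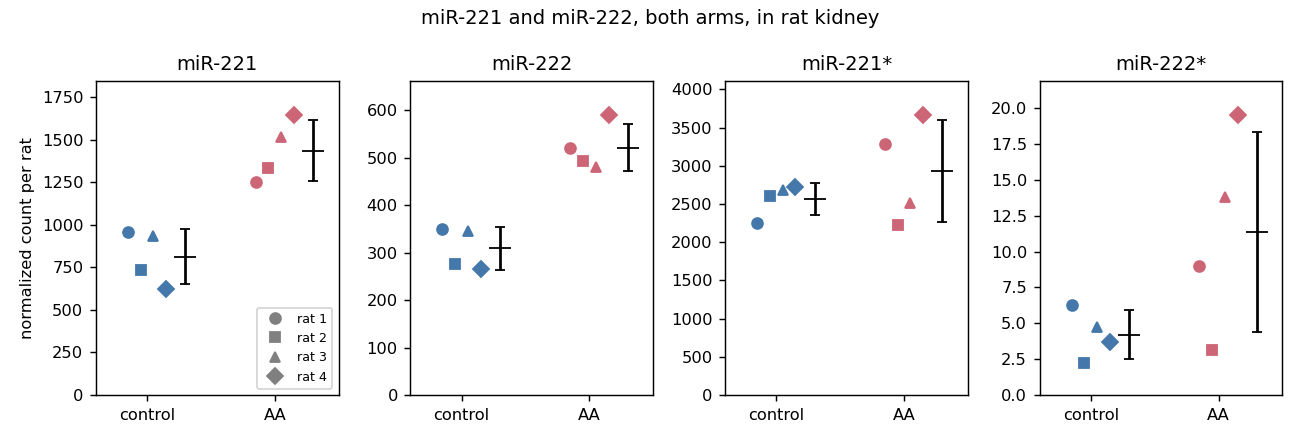
Normalized counts per rat (vertical axes from 0, a scale of its own for each miRNA) of miR-221, miR-222, miR-221* and miR-222* in the 4 control (blue) and 4 AA (red) rats. The symbol gives the rat's number, and the bar beside each group its mean and SD. The groups do not overlap for miR-221 and miR-222 and overlap for both starred arms.

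Both adjusted p values lay close to the threshold in edgeR. With DESeq2 the adjusted p was 1.19e-03 for miR-221 and 7.45e-04 for miR-222. Neither edgeR call held through all fits with 1 rat left out, each of which also had fewer rats to test with. When 1 rat at a time was left out, the log2 rise of miR-221 stayed between 0.71 and 0.91 and that of miR-222 between 0.68 and 0.82. The adjusted p of miR-221 (edgeR) was then between 0.0338 and 0.111, and passed the threshold in 4 of the 8 fits. It missed it without control rat 2 (0.111), control rat 3 (0.0519), control rat 4 (0.0600) or AA rat 3 (0.0593). The adjusted p of miR-222 missed the threshold in all 8 of these fits, with values from 0.0573 without AA rat 4 to 0.153 without control rat 2. Without AA rat 2, its lowest AA rat, miR-222* had an adjusted p of 0.0422 (edgeR) and passed both thresholds.

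**Figure D2:**
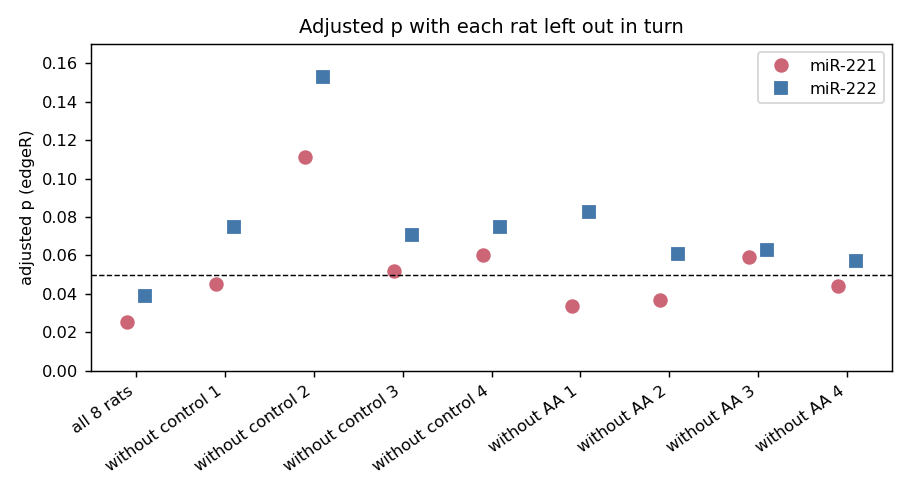
Adjusted p (vertical axis) of miR-221 (red circles) and miR-222 (blue squares) (edgeR) with all 8 rats and with each rat left out, named on the horizontal axis. The dashed line is the threshold of 0.05. Points of miR-221 fall on both sides of it, and those of miR-222 are below it only with all 8 rats.

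Whether miR-221 and miR-222 rose by the same factor was asked with their ratio, which does not depend on how the libraries are scaled, since both counts come from the same library. The ratio was 2.74, 2.67, 2.69 and 2.34 in control rats 1 to 4. It was 2.40, 2.69, 3.16 and 2.78 in AA rats 1 to 4. The 2 groups overlapped, with AA rats 3 and 4 above every control rat and control rat 4 below every AA rat, and miR-221 had more than 2 counts for each count of miR-222 in every rat. The mean ratios of control and AA rats were 2.61 ± 0.184 and 2.76 ± 0.314 (SD, n = 4 each). The change of the ratio was 1.05-fold, with an interval of 0.874 to 1.35 (95%, inverted from the exact permutation test), and the test gave p = 0.343 (adjusted p = 0.429 over 5 such tests of ratios and sums). A factor outside this interval between the rises of the 2 miRNAs was therefore refused by the test, and a smaller one could not be seen with 4 rats per group. The ratio is one of reads and not of molecules.

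Across the 8 rats, log2 values of miR-221 and miR-222 (with a pseudocount of 1) had a Pearson correlation of 0.97. When each rat was taken as its deviation from its group mean, the correlation was 0.84. The points share their libraries and size factors. The 3p arm of miR-221 and its own 5p arm had a correlation of 0.30 over the 8 rats and of -0.04 in the deviations from the group means.

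The sum of miR-221 and miR-222, which counts the reads that carry their common seed, was 1309, 1012, 1277 and 886 normalized counts in control rats 1 to 4. In AA rats 1 to 4 the sum was 1770, 1825, 1998 and 2238. The AA rats were all above the control rats, with means of 1957 ± 211 and 1121 ± 206 (SD, n = 4 each). The difference in mean log2 sum was 0.82, and the exact permutation test gave p = 0.0286 (two-sided), which became 0.0714 when adjusted over the 5 tests. The sum over all 4 members had means of 3690 ± 183 (control) and 4895 ± 802 (AA; SD, n = 4 each), again without overlap. Its log2 difference of 0.39 had the same p and the same adjusted p. This p is the smallest that 4 rats against 4 allow. A lower adjusted p therefore needed more of the 5 tests to reach it, whatever the size of the difference. Most of this second sum was miR-221*.

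The arms of the 2 hairpins were used unequally. In the miR-221 hairpin, the starred 5p arm gave more counts than the 3p arm in all 8 rats. It held 70.1%, 77.9%, 74.2% and 81.5% of the hairpin's counts in control rats 1 to 4. In AA rats 1 to 4 it held 72.5%, 62.6%, 62.4% and 69.0%. AA rats 2, 3 and 4 were below all control rats, and AA rat 1 lay between control rats 1 and 3. On the log2 scale, the ratio of miR-221* to miR-221 was 0.67 lower in the AA rats, with a standard error of 0.25. The exact permutation test gave p = 0.0571 (two-sided, adjusted p = 0.0952 over the 5 tests). The interval of the log2 difference ran from -1.40 to 0.165 (95%, from the same test). The rise of the 3p arm was thus not shown to differ from the change of the 5p arm.

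In the miR-222 hairpin the starred arm was rare in every rat. Of the hairpin's counts it held 0.791% to 1.75% (median 1.36%) among the control rats and 0.628% to 3.20% (median 2.24%) among the AA rats. These shares rest on 2 to 24 counts of the starred arm. The ratio of the arms did not differ between the groups beyond the spread (log2 difference 0.37, exact permutation test, p = 0.571, adjusted p = 0.571, interval -1.44 to 1.76).

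Among 113 hairpins with both arms at a mean of 10 or more normalized counts, the arm ratio did not overlap between the groups in 14 (12.4%), and the miR-221 hairpin was not one of them. The median shift of the log2 arm ratio over these hairpins was 0.04. For 94 of them the table used a starred and an unstarred name. In 9 of these 94 the starred arm was above the unstarred arm in all 8 rats, among them miR-221* and also miR-140*, a cartilage miRNA, and miR-144*, of red cell precursors. These last 2 were named after their values were seen.

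**Figure D3:**
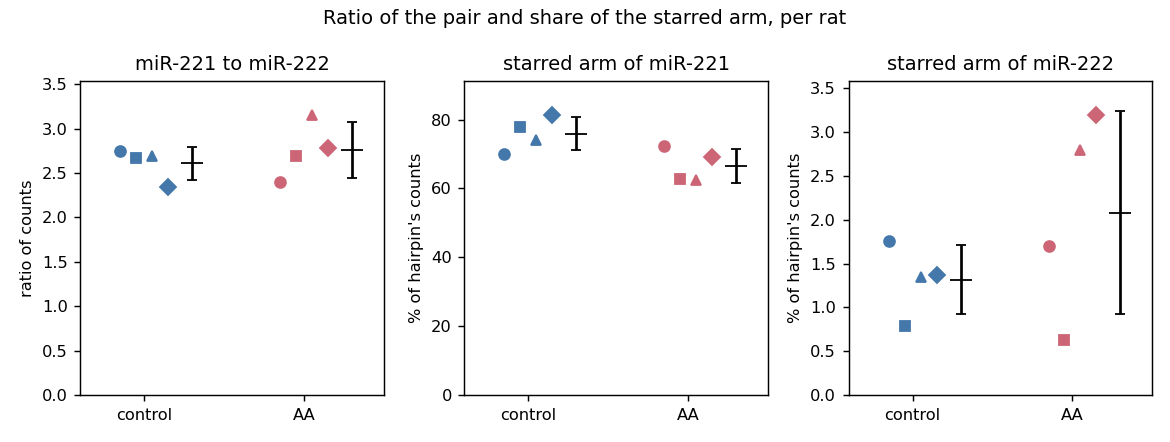
Ratio of miR-221 to miR-222 counts per rat (left) and share of the starred arm among the counts of each hairpin in percent (middle and right), for 4 control (blue) and 4 AA (red) rats, with circles, squares, triangles and diamonds for rats 1, 2, 3 and 4 and bars for the mean and SD. The ratio lies between 2.34 and 3.16 in all rats, the starred arm of miR-221 between 62.4% and 81.5%, and that of miR-222 at or below 3.20%.

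By level, the members ranged from common to barely detected. In the control rats, miR-221* was at place 100 of the 620 miRNAs by mean normalized count, miR-221 at place 135, miR-222 at place 173 and miR-222* at place 416. In the AA rats they were at places 97, 118, 156 and 356. As a share of the library, miR-221 took 37.0 to 63.3 of every 1000000 counts in a control library and 83.0 to 129 in an AA library. miR-222 took 15.8 to 23.5 and 34.6 to 46.5. Each of these 2 miRNAs therefore also had non-overlapping groups when no size factor was used. Within each rat the order was miR-221*, miR-221, miR-222 and miR-222*, without exception. The neighbours in the order of control levels were miR-142-5p and miR-455 for miR-221, and miR-339-3p and miR-128 for miR-222. Their means were 815 ± 157, 760 ± 126, 310 ± 104 and 305 ± 38.1 normalized counts (SD, n = 4 each). They are close to those of the members because the neighbours were picked by rank. miR-221* stood between miR-185 (2607 ± 773) and miR-664 (2193 ± 342), and miR-222* between the hairpin-named row rno-mir-221* (4.35 ± 2.56) and miR-741-3p (4.11 ± 5.56).

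**Figure D4:**
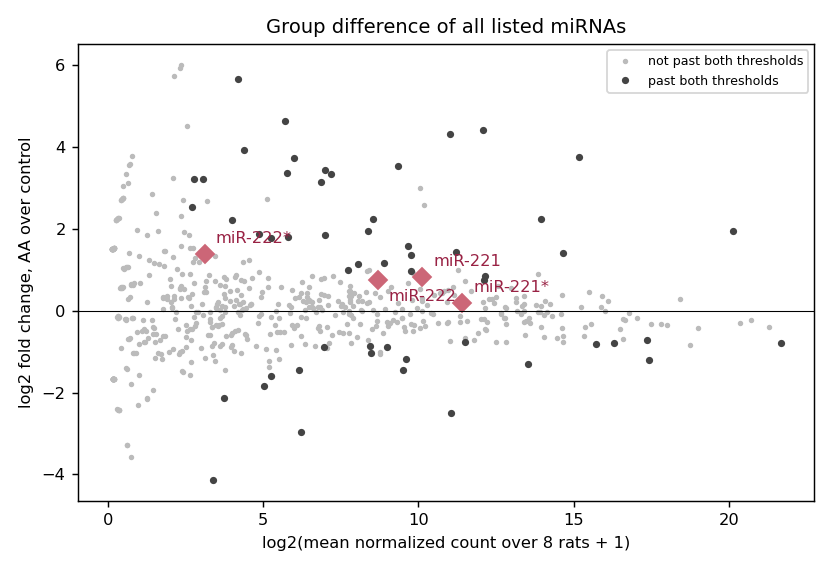
log2 fold change of AA over control (vertical axis) against log2 of the mean normalized count over the 8 rats plus 1 (horizontal axis) for all 620 miRNAs. Black points passed both thresholds, grey points did not, and red diamonds are the 4 members. miR-221 and miR-222 lie at 0.82 and 0.75, among the smaller changes that passed, against a median of 0.05 over all miRNAs.

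The 5 miRNAs with the profile most like that of miR-221, among 239 others with a mean of at least 100 normalized counts, were ranked by the Pearson correlation of log2 values over the 8 rats. They were miR-222 (0.97), miR-24-2* (0.96), miR-132 (0.96), miR-196a (0.94) and miR-34c* (0.92). In the deviations from the group means these correlations were 0.84, 0.85, 0.79, 0.91 and 0.55. For miR-222 they were miR-132 (0.99), miR-221 (0.97), miR-130b (0.97), miR-142-3p (0.96) and miR-15b* (0.95), with 0.92, 0.84, 0.73, 0.74 and 0.73 in the deviations. miR-132 was thus in both lists. It is known to be induced through the transcription factor CREB, and miR-142-3p is a miRNA of blood cells. The starred arms had other miRNAs nearest to them. For miR-221* these were miR-3586-3p (0.92), miR-17-1-3p (0.85), miR-351 (0.83), miR-450a (0.82) and miR-106b* (0.80). For miR-222*, with its few counts and 240 candidates, they were miR-374 (0.88), miR-872* (0.81), miR-27a* (0.79), miR-547 (0.78) and miR-221 (0.76). The correlations over 8 rats hold the group difference itself, and all points share their libraries.

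miRNAs known to act on the same step of the cell cycle were read from the same fit. Of 12 listed miRNAs that, like miR-221 and miR-222, are known to repress inhibitors of cyclin-dependent kinases, 11 were in the table, and none of them passed both thresholds. Their log2 fold changes lay between -0.18 and 0.55, with a median of 0.02 against 0.05 over all 620 miRNAs. The listed miRNA that was not in the table was miR-148a. Its relatives miR-148b-3p and miR-152 were not listed. Both passed both thresholds as lower in the AA rats, at log2 fold changes of -0.79 (edgeR, adjusted p = 0.0154) and -0.81 (0.0131). They were picked after their values were seen. miR-20a, of the miR-17 family that represses Cdkn1a (p21), had 6638 (control) and 9709 (AA) normalized counts on average (edgeR, adjusted p = 0.156). miR-25, which represses Cdkn1c (p57), had 6650 and 6254 (edgeR, adjusted p = 0.791). miR-24 and miR-181a, which have been tied to Cdkn1b (p27), had log2 fold changes of -0.05 and -0.01. With total counts in place of size factors, miR-20a alone of the 11 passed both thresholds.

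Of 18 listed miRNAs that are known to repress G1 cyclins and their kinases, 6 rose and none fell. Among all 620 miRNAs, 36 (5.81%) rose. The median log2 fold change was 0.37 over the list, against 0.05 over all miRNAs. The 6 of the list that rose were miR-34a, miR-34b, miR-34c and miR-449a, which p53 or E2F1 are known to induce, and miR-322 and miR-503. These last 2 come from 1 cluster of the X chromosome. miR-34a had the largest log2 fold change of the list in this fit, 4.42 with a standard error of 0.27 (edgeR, adjusted p = 1.28e-07). miR-322, at 0.84 with a standard error of 0.21 (edgeR, adjusted p = 0.0227), was close in size to miR-221, and it lost its call when any 1 control rat was left out. The call of miR-503 (1.43, edgeR, adjusted p = 0.0245) was lost without control rat 1, 3 or 4 or AA rat 1, where its adjusted p was at most 0.0745. It was also lost with limma-voom (adjusted p = 0.0968) and with robust moderation in edgeR (0.0651), which left 5 of the 18 that rose. The remaining 12 miRNAs, among them 7 let-7 miRNAs and miR-98, had log2 fold changes from 0.06 to 0.47. Without both rats numbered 4, only 4 of the 18 rose, since miR-322 and miR-503 missed the threshold. The lists were put together with earlier results of these rats known, so that these counts are a description.

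Levels of miRNAs that mark other cell types of a kidney were read beside these results. Of 5 leukocyte miRNAs, 4 were in the table and 2 rose, against 36 of all 620 miRNAs (5.81%). The 2 were miR-142-3p, which rose by 1.42 on the log2 scale with a standard error of 0.22 (edgeR, adjusted p = 7.92e-04), and miR-223. The latter, a granulocyte and macrophage miRNA, rose by 0.96 with a standard error of 0.24 (edgeR, adjusted p = 0.0231). The call of miR-223 was lost without control rat 1, 2 or 3, where its adjusted p reached at most 0.0747. miR-150 had a log2 difference of 0.52 (edgeR, adjusted p = 0.133) and miR-146a one of -0.14 (0.625), and neither passed both thresholds. With total counts, 3 of the 4 rose. The summed level of the 4 leukocyte miRNAs was 31283 to 41449 normalized counts per control rat and 47692 to 76610 per AA rat, without overlap. Most of the rise of this sum lay in miR-142-3p, with means of 14047 (control) and 37532 (AA). miR-146a had means of 21102 and 19140. The 2 fibroblast miRNAs, miR-199a-3p and miR-214, also had a sum without overlap, 4793 to 5585 against 5789 to 8864, and neither passed both thresholds on its own, although miR-199a-3p did so with DESeq2, total counts, either filter on low counts or the replicate block, and without AA rat 1. Their part in the rise of miR-221 and miR-222 was not tested.

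Markers of vascular cells, in which miR-221 and miR-222 are well known, were read in the same way. Their part in the rise of miR-221 and miR-222 was not tested either. The 2 endothelial strands of the miR-126 hairpin together had 124106 to 164003 normalized counts per control rat and 88876 to 137262 per AA rat. For smooth muscle, miR-143, miR-145, miR-1 and miR-133a were listed, although miR-1 and miR-133a are not particular to smooth muscle. These 4 had a sum of 2553010 to 3542674 per control rat and of 1959734 to 2669262 per AA rat. Nearly all of this sum was miR-143, with means of 2935741 (control) and 2206879 (AA). The log2 differences were -0.41 for miR-143, 0.22 for miR-145, -0.26 for miR-1 and -0.87 for miR-133a. None of the 6 miRNAs of these 2 lists passed both thresholds. The medians of -0.42 (endothelial list) and -0.34 (smooth muscle list) on the log2 scale were below the 0.05 of all miRNAs. In the smooth muscle list, miR-143 was below that value and miR-145 above it. The 3 tubule miRNAs miR-192, miR-194 and miR-204 were present in every library, which were labelled as kidney, with a sum of 357507 to 1161165 per control rat and of 224279 to 408419 per AA rat. Of these 3, miR-204 fell by 0.86 on the log2 scale, with a standard error of 0.24 (edgeR, adjusted p = 0.0357). This call was lost with TMM normalization (adjusted p = 0.0513 in edgeR) and with total counts (0.174). It was also lost without both rats numbered 4 (0.0516) and without control rat 1, 2 or 4 or AA rat 1 or 3 alone, where its adjusted p was at most 0.0883. miR-192 and miR-194 had log2 differences of -0.84 (edgeR, adjusted p = 0.168) and -0.77 (0.0515), so that the median of the 3 was -0.84. With DESeq2, limma-voom, robust moderation, either filter on low counts, the replicate block or the labelled weeks as a covariate, 2 of the 3 fell, miR-194 being the second. Of the 5 epithelial and the 2 red cell miRNAs found, none passed both thresholds, with medians of -0.11, which turned to 0.14 with total counts, and -0.66. None of the listed markers found in the table was at 0.

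**Figure D5:**
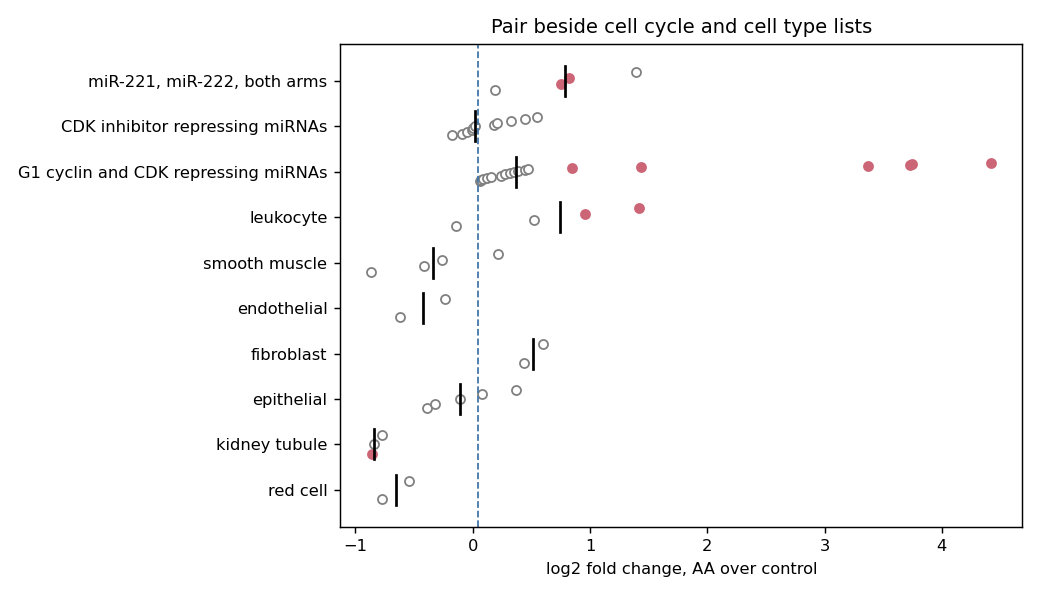
log2 fold change of AA over control (horizontal axis) of the 4 members and of the miRNAs of each list (rows). Red points passed both thresholds and open points did not, black bars are the medians of the rows, and the dashed line is the median of all 620 miRNAs, 0.05. miR-221 and miR-222 lie above all 11 miRNAs of the list that shares their known target class.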

How the data were processed

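Small RNA of 8 rat kidneys, 4 control and 4 AA-treated, was sequenced on the Illumina Genome Analyzer II, with CASAVA 1.7 named in the submitters' processing notes. The authors masked adaptors, removed contaminated reads and counted reads on known rat miRNAs (miRBase release 16) with miRanalyzer at its defaults. The deposited values are raw counts, 1 per mature miRNA in each rat. How reads matching more than 1 miRNA were assigned, and a genome build, are not given in the sources used here.

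The sample titles gave the group and number of each rat. Counts of all 620 miRNAs were tested with edgeR 4.0.16 (quasi-likelihood test, median-of-ratios size factors, no covariate, R 4.3.3) and adjusted by Benjamini-Hochberg over all of them. A change needed a ratio of mean normalized counts over 1.5 beside an adjusted p under 0.05. Ratios and sums were compared with exact permutation tests (two-sided, 70 labelings, 0.5 counts added to ratios), adjusted over 5 tests. Alternatives used limma 3.58.1 and DESeq2 1.42.0 and other settings given with their results. Between any 2 libraries of the same group, the chi-square per degree of freedom was at least 394, so none was the same library sequenced again. It cannot show whether 2 libraries came from different rats. Each library is labelled as 1 rat, so that p values measure the spread between these animals. Limits of counts cover counting error only, since reads carry no molecular identifiers.

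The miRNAs named were the 4 members, the 5 most like each member, their neighbours in level, any miRNA sharing a seed with a member, and members of the lists that passed both thresholds. Some others are named as examples, chosen after their values were seen. The members and lists were chosen with earlier results of these data known. Sequences and gene names came from RefSeq tables of GRCr8. The study's other measurements were not used here. Python 3.11.15, pandas 2.3.3, scipy 1.17.1 and matplotlib 3.10.9 were used for the other steps.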

Additional observations from a re-analysis of the deposited data

Results flagged for a closer look

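In the control rats, the summed normalized counts of all 4 members stood apart in control rat 3, with 3962 against 3568 to 3615 in the other control rats. Its gap to the next rat was 0.875 of the range of the group on the log2 scale, above Dixon's critical value for 4 values. Of 18 groups of values checked this was the only 1 to stand out, where chance gives about 1 in 20.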

How the results depend on the processing

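miR-221 kept both thresholds with TMM normalization, total counts, DESeq2, limma-voom, robust moderation, both filters on low counts, the labelled weeks as a covariate and the replicate block, and so did miR-222. Scaling by total counts put the median over all 620 miRNAs at 0.31 on the log2 scale instead of 0.05, and the changed miRNAs went from 36 higher and 20 lower to 58 higher and 11 lower. Relative to that median, miR-221 was at 0.77 and miR-222 at 0.70, against 0.78 and 0.71 with size factors. With a fold change over 2 as the threshold, miR-221 (log2 0.82) and miR-222 (log2 0.75) were no longer counted as changed. Without both rats numbered 4, miR-222 had a log2 fold change of 0.63 and an adjusted p of 0.0533 in edgeR's test. With each rat left out, the log2 fold change ranged from 0.71 to 0.91 for miR-221, from 0.68 to 0.82 for miR-222, from 0.07 to 0.30 for miR-221* and from 0.97 to 1.72 for miR-222*. miR-222* was removed by both filters on low counts. The ratios and sums kept their direction under the 12 alternatives run for each, and none passed the adjusted threshold with or without them.

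The number of changed miRNAs was 56 and lay between 40 and 74 over the alternatives. Rats of the same number are different animals, so that the numbers were not taken as pairs. The deviations from the group means had correlations from -0.01 to 0.34 (mean 0.15) between rats of the same number. Between rats of different numbers these ran from -0.28 to 0.25 (mean -0.05). Of the 8 rats, 5 correlated best with their own number. With the replicate block 74 miRNAs were changed, and the log2 fold changes were 0.84 for miR-221 and 0.76 for miR-222. For ratios and sums, 4 pairs do not allow a p below 0.125. The counts of miR-222* were few, 2 to 24, unlike those of the other members.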
